A study of Mus musculus with 8 samples.

Results

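The ribosomal protein genes of the cytosolic ribosome were compared between cells of the bone marrow and of the small intestine that were sorted and labelled as eosinophils. Members were all rows of the expression table whose gene symbol is Rpl or Rps with a number, a stalk symbol (Rplp0, Rplp1, Rplp2) or Rpsa, without symbols ending in -ps and without the Rps6 kinases. The rule found 86 of the 38392 genes of the table, 53 of the large and 33 of the small subunit, and 3 of these (Rpl6l, Rps4l and Rps12l1) are processed pseudogenes in the GENCODE M21 annotation. Eosinophils are granulocytes of type 2 immunity that form in the bone marrow and live on in tissues such as the gut wall. RNA was sequenced from cells of wildtype female mice of strain C57/BL6, with 4 libraries for each tissue and no treatment. The methods name separate mice as the replicates. The bone marrow sort took CD11b+, Ly6G-, Ly6C-, SiglecF+ cells of high side scatter, and the intestinal sort took CD11b+, MHC-II-, SiglecF+ cells of high side scatter. Intestinal cells were released by warm enzyme digestion after the epithelium was stripped, and were enriched on CD11b beads, whereas marrow was flushed and its red cells were lysed, so tissue and handling cannot be told apart in any difference below. Some markers in the marrow libraries went against the label. Mpo and Elane, defining genes of neutrophil precursors, averaged 149860 and 79791 normalised counts there, against 350 for the eosinophil peroxidase gene Epx. The 10 eosinophil markers together summed to 3551 ± 851 in the marrow libraries and 40540 ± 5306 in the intestinal libraries (SD, n = 4 each). The sum does not stand for each marker. In the limma test described below, 5 of the 10 were lower in small intestine, Epx among them, and 4 were higher. Their median difference, small intestine minus bone marrow, was -1.85. Results are therefore given by tissue and sort, not as differences between eosinophils. Depth ran from 11508002 to 21289164 reads per library. Gene positions below are those of GENCODE M21 in build GRCm38, the build of the deposited table.

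A ribosome joins a large and a small subunit, each an RNA scaffold covered by many proteins that are made in near equal number and assembled in the nucleolus. The genes of these proteins are housekeeping genes that are read most in growing and dividing cells. Their mRNAs begin with a pyrimidine run, the terminal oligopyrimidine (TOP) motif, through which mTORC1 and the RNA-binding protein LARP1 control translation and stability.

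The stretches around the transcription start are printed for 8 members that carry the results below, to show that pyrimidine runs occur both in genes that fell by much and in genes that did not pass the test. Each window holds 50 bases before and 25 bases from the RefSeq start in build GRCm38.p6, read on the gene's strand. The longest run of C and T is in capitals, or the first of runs of equal length. Rps18, Rpl28 and Rpl14 were among the 5 members with the most negative differences, Rps6 encodes the substrate of the S6 kinases, and Rps27, Rps9, Rpl22l1 and Rps27l are the exceptions or paralogs described below. The windows lie as follows: Rps18 at chr17:33955641-33955715 (minus strand), Rpl28 at chr7:4792915-4792989 (plus strand), Rpl14 at chr9:120571467-120571541 (plus strand), Rps6 at chr4:86857343-86857417 (minus strand), Rps27 at chr3:90213624-90213698 (minus strand), Rps9 at chr7:3703991-3704065 (plus strand), Rpl22l1 at chr3:28805458-28805532 (plus strand) and Rps27l at chr9:66946036-66946110 (plus strand).
Rps18: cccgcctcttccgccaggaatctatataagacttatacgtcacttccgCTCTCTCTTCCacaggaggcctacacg
Rpl28: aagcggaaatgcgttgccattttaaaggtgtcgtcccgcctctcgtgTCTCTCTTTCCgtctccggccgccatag
Rpl14: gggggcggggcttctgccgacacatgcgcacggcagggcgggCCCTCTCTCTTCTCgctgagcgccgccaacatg
Rps6: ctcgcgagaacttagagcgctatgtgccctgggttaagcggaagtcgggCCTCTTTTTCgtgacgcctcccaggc
Rps27: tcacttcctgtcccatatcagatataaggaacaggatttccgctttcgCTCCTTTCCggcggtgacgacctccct
Rps9: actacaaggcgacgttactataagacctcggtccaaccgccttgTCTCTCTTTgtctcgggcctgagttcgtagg
Rpl22l1: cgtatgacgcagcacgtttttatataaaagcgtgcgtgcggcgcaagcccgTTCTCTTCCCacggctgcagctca
Rps27l: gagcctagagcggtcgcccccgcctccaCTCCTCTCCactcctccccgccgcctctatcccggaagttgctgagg

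The runs in capitals were 11 bases long in Rps18, 11 in Rpl28, 14 in Rpl14, 10 in Rps6 and Rpl22l1, and 9 in Rps27, Rps9 and the upstream of 2 starts of Rps27l. Relative to the annotated start, the run of Rps27l began at -22 and ended before that start. A second run of 9 bases lies nearer the start in its window. The other printed runs began between -8 (Rpl14) and 1 (Rpl22l1). Other members named below, whose windows are not printed, had runs of varied length. The longest run of the window was 7 bases in Rpsa and 6 in Rpl36a, the members with the most negative differences. It was 6 in the exceptions Rps13 and Rpl24, but 14 in Rpl4, 13 in 1 of the windows of Rps19 and 12 in Rpl11. The printed windows thus do not stand for all members. A window was in the RefSeq table for 63 of the 86 members, 53 of them with 1 start. A pyrimidine run of at least 8 bases was in the window of 40 of the 63 (63.5%), against 32.4% of all 27025 genes with a window. In the 300 bases from 250 before to 50 after the start, on either strand, CCGGAAG, a core of the sites of ETS factors such as GABPA, was present in 25 of 63 members (39.7%) and in 9.93% of all genes. AAGATGGC, a core of YY1 sites that can overlap the former by its AAG, was present in 6 members (9.52%) and in 3.19% of all genes. TATAAA was present in 7 members (11.1%) and in 15.7% of all genes. These are matches of letters, with no measurement of binding, and a gene with several starts counted once.

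Ribosomal protein mRNAs were less abundant in the intestinal sort than in the marrow sort. Their reads made up 2.43%, 2.43%, 2.33% and 2.02% of all reads in genes in BM_1, BM_3, BM_4 and BM_5, the bone marrow libraries by their column names, and 0.666%, 0.788%, 0.932% and 0.670% in SI_10, SI_11, SI_6 and SI_7. All bone marrow libraries lay above all intestinal libraries. The means were 2.30% ± 0.195 and 0.764% ± 0.125 (SD, n = 4 each), and 3.12% ± 0.293 and 0.963% ± 0.205 when only reads of nuclear protein-coding genes made up the total. These are shares of a bulk RNA pool, in which fewer cells of a type and less RNA per cell cannot be told apart. Markers of other cells moved with them. The summed normalised counts of 14 genes of neutrophil precursors were 602867 ± 74220 in the marrow and 1054 ± 145 in the intestine, and those of 12 proliferation genes were 65840 ± 547 and 6523 ± 2615 (SD, n = 4 each). The part of these cells in the differences of the ribosomal protein genes was not tested.

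Of the 86 members, 76 were lower in small intestine in the test across all genes (limma on the deposited values, Benjamini-Hochberg adjusted p under 0.05), 1 was higher (Rpl24) and 9 did not pass. Among all 38392 genes, 12.9% were called lower and 22.0% higher. The median difference of the members, small intestine minus bone marrow, was -1.28 on the deposited log2-like scale, which corresponds to a 2.43-fold lower level, and the median of all genes was 0.37. Because most genes of the table have few reads, the members were also set beside genes of like abundance. Of the 65 members with a mean of at least 1000 normalised counts, 61 were lower (median -1.34), whereas 28.9% of all 2694 genes at that level were lower (median 0.24). Every intestinal library lay below every marrow library for 75 members, and this held for 13.9% of all genes. The folds of the 76 genes called lower ran from 1.47 to 4.27 in mean normalised counts.

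**Figure D1:**
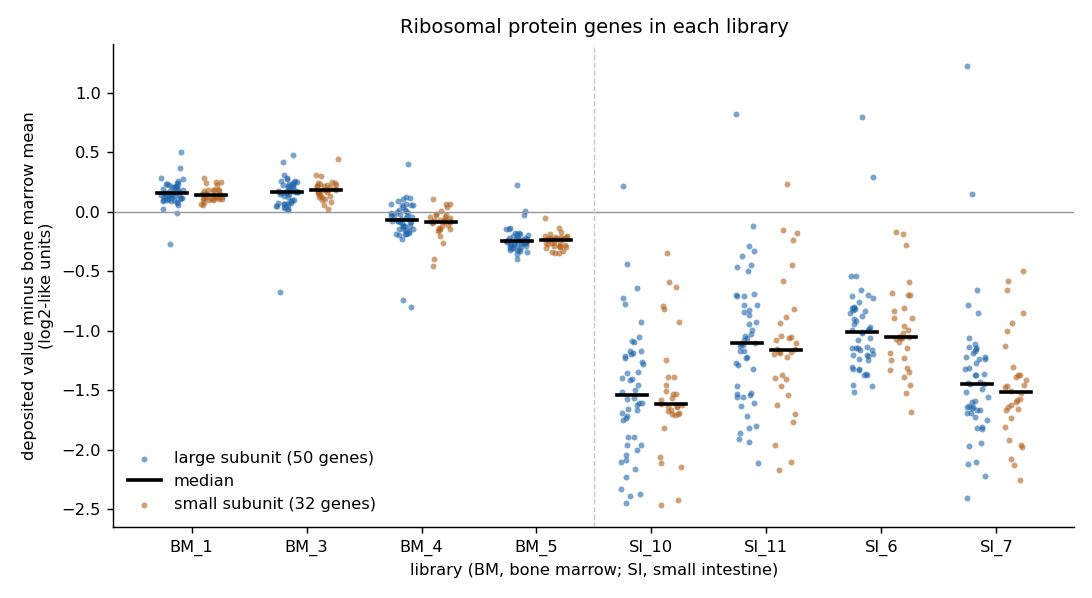
Deposited value of each member with a mean of at least 10 reads (50 large-subunit and 32 small-subunit genes, 1 point each) minus its own bone marrow mean, in log2-like units, for the 8 libraries, with black bars at the medians. The medians over all 82 genes lay between -0.25 and 0.17 in the bone marrow libraries and between -1.57 and -1.05 in the intestinal libraries.

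Both subunits held mostly genes called lower. Of the 53 large-subunit genes, 48 were lower, 1 was higher and 4 did not pass, with a median of -1.23 and quartiles of -1.54 and -0.96. Of the 33 small-subunit genes, 28 were lower and 5 did not pass, with a median of -1.32 and quartiles of -1.47 and -1.13. In summed reads, large-subunit genes had 1.77, 1.75, 1.81 and 1.80 reads for each small-subunit read in the bone marrow libraries, in the order given above, and 1.59, 1.55, 1.70 and 1.67 in the intestinal libraries. This ratio was 1.78 ± 0.0278 in the marrow and 1.63 ± 0.0687 in the intestine (SD, n = 4 each), with no overlap of the libraries. Rpl4, the member with the most reads in both tissues, fell by more than the median of its subunit, and 4 of the 5 small-subunit genes that did not pass had means above 1000 normalised counts.

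**Figure D2:**
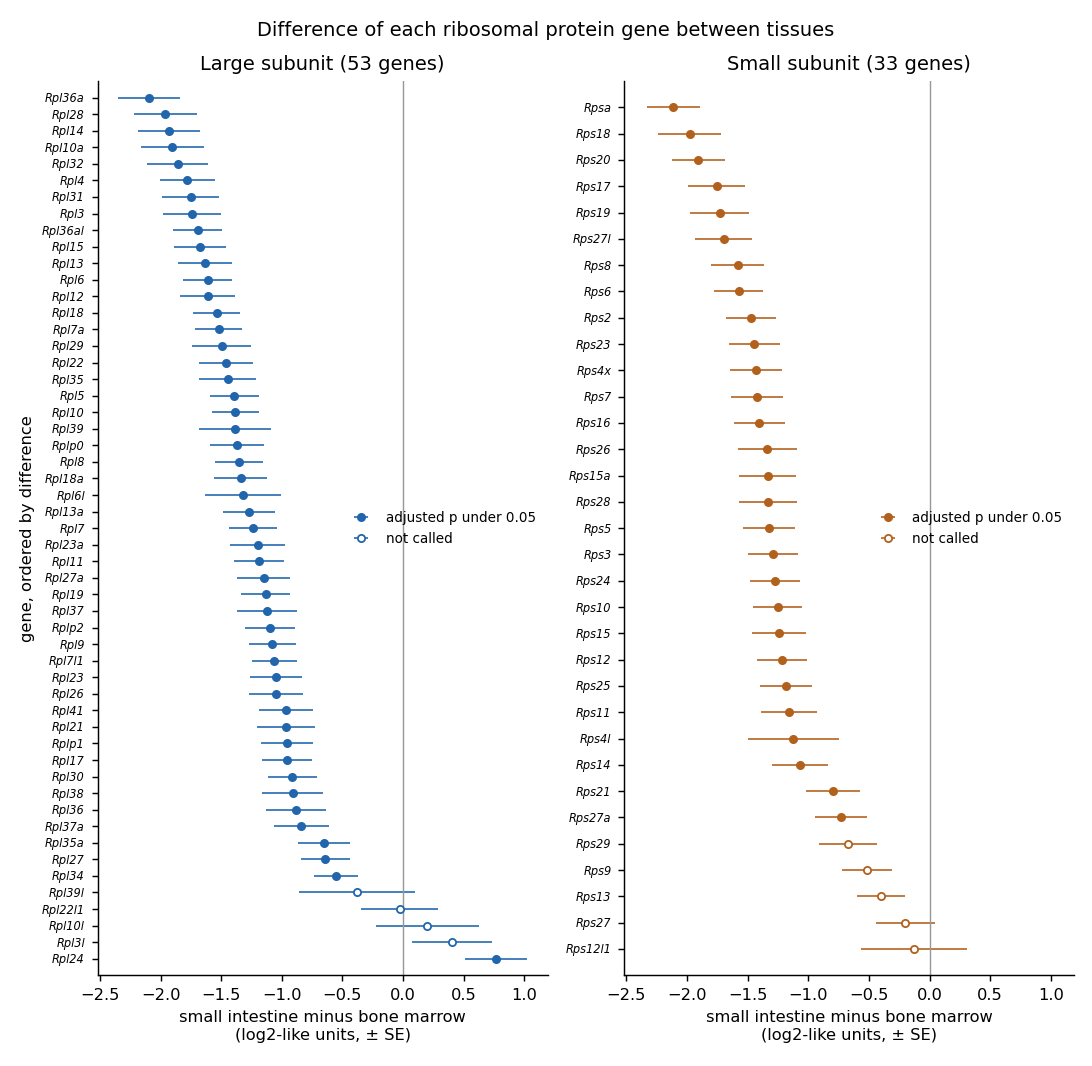
Difference between small intestine and bone marrow for each of the 86 members, in log2-like units with the standard error of the limma fit, ordered within the large subunit (left) and the small subunit (right). Filled points passed an adjusted p of 0.05 and open points did not; the values run from -2.11 (Rpsa) to 0.77 (Rpl24).

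The most negative difference was that of Rpsa, which encodes a protein of the small-subunit surface that is also known as the laminin receptor (chr9:120127689-120132369). Its normalised counts were 9002, 8462, 8958 and 6975 in bone marrow and 1501, 1838, 2580.5 and 1897 in small intestine, in the library order BM_1, BM_3, BM_4, BM_5 and SI_10, SI_11, SI_6, SI_7 that all values below keep. Each intestinal library held less than the lowest marrow library, and the means of 8349 ± 948 against 1954 ± 453 (SD, n = 4 each) differed by -2.11 ± 0.22 (SE), adjusted p = 0.000142 with limma. The next was Rpl36a of the large subunit (chrX:134585654-134588062), with 1971, 2238, 1788 and 1473 in bone marrow and 363, 424, 642 and 344 in small intestine (difference -2.09 ± 0.26 (SE), adjusted p = 0.000336). Rps18, a protein of the small-subunit head (chr17:33951999-33956001), was at 2862, 3098, 2485 and 2267 in bone marrow and 492, 778, 966 and 552 in small intestine (difference -1.98 ± 0.26 (SE), adjusted p = 0.0005). For these genes too the tissues did not overlap, and SI_6 held the highest intestinal value. Rpl28 (chr7:4792874-4795066) and Rpl14 (chr9:120571444-120574654), both of the large subunit, fell by 1.96 and 1.93 on the deposited scale, from 5171 ± 889 to 1352 ± 398 and from 4279.9 ± 579 to 1149 ± 357 normalised counts (limma adjusted p = 0.000514 and 0.00052).

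The 3 proteins of the stalk, the arm of the large subunit that recruits the elongation factors, were all lower. Rplp0, its base (chr5:115559467-115563727), was at 5438, 4918, 4967 and 3912 in bone marrow and 1509, 1977, 2394 and 1618 in small intestine (difference -1.37 ± 0.22 (SE), adjusted p = 0.00144). Rplp1 (chr9:61913284-61914542) and Rplp2 (chr7:141447370-141451585), the acidic proteins that bind Rplp0 in pairs, differed by -0.96 ± 0.21 (SE), adjusted p = 0.00781, and by -1.10 ± 0.21 (SE), adjusted p = 0.00352. Their means were 3817 ± 624 against 1961 ± 324 for Rplp1 and 5831 ± 988 against 2710.4 ± 369.5 for Rplp2 (normalised counts, SD, n = 4 each, bone marrow first). The stalk genes thus lay on either side of the large-subunit median of -1.23, and their intestinal libraries did not overlap with those of the marrow.

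Of the members listed for a role outside translation or in disease, 5 besides Rpsa were each called lower. Rpl5 (chr5:107900502-107909005) and Rpl11 (chr4:136028265-136053428), which bind MDM2 when ribosome assembly is disturbed, had means of 4015 ± 408 against 1540.0 ± 267 and 4286 ± 562 against 1886 ± 309 normalised counts (differences -1.39 and -1.19, limma adjusted p = 0.000818 and 0.00208). Rps19 (chr7:24884371-24889806) and Rps26 (chr10:128624534-128626747), small-subunit genes mutated in Diamond-Blackfan anaemia, had means of 1453 ± 161 against 444 ± 118 and 2404 ± 409 against 961 ± 247 (differences -1.73 and -1.34, adjusted p = 0.000647 and 0.00279). Rps6 (chr4:86854660-86857412), the substrate of the S6 kinases downstream of mTORC1, was at 4190.2, 4438, 3673 and 3393 in bone marrow and 1102, 1478, 1529 and 1172 in small intestine (difference -1.58 ± 0.20 (SE), adjusted p = 0.000428). Rps27 and Rps29, also reported in Diamond-Blackfan anaemia, did not pass and are described below. None of the 5 genes had an intestinal library as high as its lowest marrow library.

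Levels per kb of transcript set the members beside each other. In bone marrow the highest were Rpl32 (15967 normalised counts per kb), Rplp2 (13850.2) and Rpl4 (13629), with Rpl10 close behind at 13570.5. In small intestine they were Rps27 (9235), Rps29 (6835) and Rplp2 (6438), while Rpl32 stood at 4477 and Rpl4 at 4038. The order was otherwise much alike (Spearman rho of 0.91 across 80 coding members with at least 10 reads; genes of the same libraries, given as a description). Rpl32, a large-subunit protein (chr6:115805505-115808747), fell by 1.86 (adjusted p = 0.000558), and Rpl4, whose long loop reaches into the exit tunnel of the new protein (chr9:64173375-64178666), fell by 1.78 (adjusted p = 0.000424; limma). Transcript models set these levels, since a gene whose model has a long untranslated end gets a low level per kb. Per kb of coding sequence the order at the top was another one, with Rpl41, which encodes a very short basic peptide, first in both tissues (62889 and 32088 normalised counts per kb of coding sequence, bone marrow first) and Rps29 next (25207 and 15867).

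**Figure D3:**
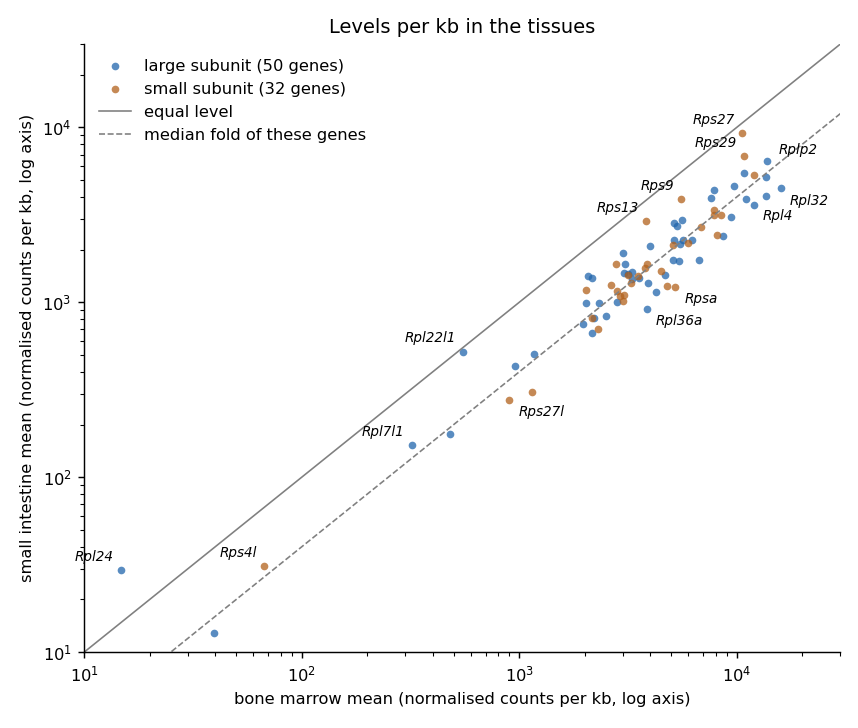
Mean level of each member with at least 10 reads in bone marrow (horizontal) and small intestine (vertical), in normalised counts per kb of transcript on log axes. Most genes lie along the dashed line of a 2.50-fold lower level, Rps27 and Rpl22l1 lie near the solid line of equal level, and Rpl24 lies above it.

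The exceptions with many reads were 4 small-subunit genes. Rps27, a small zinc finger protein (chr3:90212522-90213651), was at 4246, 4281, 3242 and 2825 in bone marrow and 2819, 4223, 3156 and 2546 in small intestine. The tissues overlapped, and SI_11 lay close to the highest marrow libraries (difference -0.20 ± 0.24 (SE), adjusted p = 0.535, limma). Rps29, another small zinc finger protein (chr12:69157722-69159186), was at 4641, 5169.5, 3798 and 3330.1 in bone marrow and 2367, 3549.9, 2564 and 2181 in small intestine (difference -0.67 ± 0.24 (SE), adjusted p = 0.0582). Rps9, which lies where the messenger enters the small subunit (chr7:3703993-3706897), was at 4461, 4710.4, 4067 and 3442 in bone marrow and 2668, 3655, 2754 and 2622 in small intestine (difference -0.51 ± 0.20 (SE), adjusted p = 0.0847). Rps13, of the platform that faces the large subunit (chr7:116331505-116334195), was at 2329.9, 2509, 2307 and 1877 in bone marrow and 1484, 2023, 1851 and 1498 in small intestine (difference -0.40 ± 0.20 (SE), adjusted p = 0.168). For Rps29 and Rps9 only SI_11 reached into the range of the marrow, and for Rps13 SI_11 alone exceeded BM_5, the lowest marrow library.

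The calls of 3 of these genes turn on single libraries, on the variance model, on the scaling and on the filter. Without SI_11 the adjusted p was 0.0204 for Rps29 and 0.027 for Rps9, and without BM_5 it was 0.0279, 0.0239 and 0.0465 for Rps29, Rps9 and Rps13, all called lower then (limma). With a variance prior that follows the level of the gene these were 0.00187, 0.00349 and 0.0205 for Rps29, Rps9 and Rps13, and with the filter at a mean of 10 reads, which leaves the differences as they are, 0.017, 0.0191 and 0.0461. These genes were also called lower with median centring (adjusted p from 0.00404 to 0.0197), quantile normalisation (0.00147 to 0.00959) and voom on the recovered reads (0.0023 to 0.0144). Rps27 stayed at an adjusted p above 0.05 in every setting except quantile normalisation (-0.64, adjusted p = 0.0395). As shares of all member reads, which no scaling between libraries can move, Rps27 went from 1.18% ± 0.0964 to 2.61% ± 0.418, Rps9 from 1.35% ± 0.0316 to 2.42% ± 0.361, Rps29 from 1.37% ± 0.115 to 2.19% ± 0.367 and Rps13 from 0.734% ± 0.0348 to 1.41% ± 0.0954 (SD, n = 4 each). In the same shares Rpl4 went from 6.84% ± 0.563 to 5.07% ± 0.69 and Rpsa from 2.72% ± 0.208 to 1.6% ± 0.214. The tissues did not overlap in these shares for any of these 6 genes, and this held for 25 of the 82 members with at least 10 reads toward a higher and for 22 toward a lower share in the intestine. Since the 4 genes were picked for falling least and Rpsa and Rpl4 for falling by much or for their level, the directions of their shares follow largely from that choice. Of the 75-base windows of the transcript, the least length of a read, 98.5% of those of Rps27 and 78.6% of those of Rps13 also occur in other genes, against 30.7% for Rps29 and 27.8% for Rps9.

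Rpl24 was the only member called higher, on few reads. This large-subunit gene (chr16:55966275-55971435) had normalised counts of 7.66, 11.7, 8.61 and 12.1 in bone marrow and 12, 20.1, 19.6 and 27.7 in small intestine, and the lowest intestinal library lay inside the marrow range (difference 0.77 ± 0.26 (SE), adjusted p = 0.049). The call was lost without BM_1 (adjusted p = 0.125), BM_3 (0.0699), BM_4 (0.115), SI_11 (0.0853), SI_6 (0.0829) or SI_7 (0.0926), and the difference was -0.13 with median centring and -0.19 with quantile normalisation. Of its exon bases, 71.5% also lie in Gm28037, a gene of the annotation with no row in the table, and 80.9% of its 75-base windows occur in 5 other genes. Reads shared in this way cannot be told apart by gene here, and their part in the low count was not tested.

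Of the members and their paralogs or processed copies, 8 listed pairs were set side by side, and in 5 of them the paralog or copy had a mean of at least 10 reads. Rpl22l1, the paralog of Rpl22 (chr3:28805436-28807424), was at 375, 387, 165 and 291 in bone marrow and 212, 266, 356 and 322 in small intestine (difference -0.03 ± 0.32 (SE), adjusted p = 0.96), while Rpl22 (chr4:152325742-152334071) fell by 1.46 (adjusted p = 0.00109, limma). Rpl22l1 made up 9.82, 10.6, 5.67 and 10.9% in the marrow and 19.7, 18.6, 21.2 and 25.6% in the intestine of the reads of the pair. No intestinal library was as low as the highest marrow library (means 9.26% ± 2.43 and 21.2% ± 3.07; exact permutation test, 2-sided, n = 4 each, p = 0.0286, the smallest these sizes allow, and 0.0714 adjusted over 5 pairs). The opposite was seen for Rps27l, the paralog of Rps27 that p53 induces (chr9:66946086-66949516). It fell by 1.70 (adjusted p = 0.000657, limma) while Rps27 did not pass, and made up 10.3, 10.8, 10.9 and 12.2% in the marrow and 4.77, 2.33, 5.55 and 4.67% in the intestine of its pair (exact permutation p = 0.0286, adjusted 0.0714). Neither share passed after adjustment. Both already had the smallest p that these sizes allow, which over 5 pairs passes only when enough other pairs reach it too. The adjusted test therefore could not decide on these shares. Of the windows of Rpl22l1, 58.6% occur in other genes, against 7% for Rpl22. For Rps27 this was 98.5%, against 12% for Rps27l. The splits of both pairs are therefore uncertain.

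Rpl36al, a copy of Rpl36a (chr12:69182731-69184083), fell by 1.69 (adjusted p = 0.00027) where Rpl36a fell by 2.09, and its share of the pair was 38.1% ± 1.73 in the marrow and 44.8% ± 4.33 in the intestine (exact permutation p = 0.0571, adjusted 0.0952). Rpl7l1, a nucleolar relative of Rpl7 (chr17:46773907-46782672), and Rpl7 (chr1:16101295-16104662) fell by 1.06 and 1.23 (limma adjusted p = 0.00224 and 0.00142), and the share of Rpl7l1 was 13.5% ± 0.723 and 14.8% ± 1.22 (exact permutation p = 0.143, adjusted 0.179). Of these pairs, Rpl36al overlaps Gm49383 over 63.1% of its exon bases, and 84.6% of the windows of Rpl36a occur in other genes, so their split is uncertain. Rps4l, a processed copy of the X-linked Rps4x (chr6:148354656-148355598), had normalised counts of 65.1, 85.4, 44 and 59.5 in bone marrow and 17.5, 16.6, 54.6 and 29.1 in small intestine (difference -1.13 ± 0.37 (SE), adjusted p = 0.0471; share, exact permutation p = 0.543, adjusted 0.543). Its call was lost without BM_1 (adjusted p = 0.106), BM_3 (0.126), BM_4 (0.0538), BM_5 (0.0872), SI_10 (0.132), SI_11 (0.106) or SI_7 (0.0923). Rpl6l, a processed pseudogene of the Rpl6 family that was not among the listed pairs (chr10:111125851-111126721), had normalised counts of 47.5, 18.9, 44.0 and 27.0 in bone marrow and 7.66, 13.0, 14.2 and 9.71 in small intestine, with no overlap (difference -1.32 ± 0.31 (SE), adjusted p = 0.0108, limma). Of its windows, 69.4% occur in other genes, so its count is uncertain.

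Rps4x (chrX:102184941-102189394), Rpl10 (chrX:74270812-74273135) and Rpl39 (chrX:37082520-37085402), all X-linked, and Rpl3 (chr15:80077791-80091868), which lines the peptidyl transferase centre, fell by 1.43, 1.38, 1.38 and 1.74 on the deposited scale (limma adjusted p = 0.000994, 0.000699, 0.00661 and 0.000624). The tissue-restricted paralogs of Rpl3, Rpl10 and Rpl39 had few reads in both tissues. Rpl3l, known from heart and skeletal muscle (chr17:24727820-24736143), had normalised counts of 5.36, 8.48, 2.87 and 8.37 in bone marrow and 12, 5.93, 14.2 and 5.55 in small intestine, and Rpl10l (chr12:66283379-66284401) and Rpl39l (chr16:10170226-10174911), known from the testis, had at most 1.86 and 3.72 in any library. Rps12l1 (chr7:56014016-56014414), a processed pseudogene with all of its windows in other genes, had at most 2.37. These 4 genes had a mean under 10 reads and did not pass (limma adjusted p from 0.403 to 0.844), and no difference in them was detectable at this depth.

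**Figure D4:**
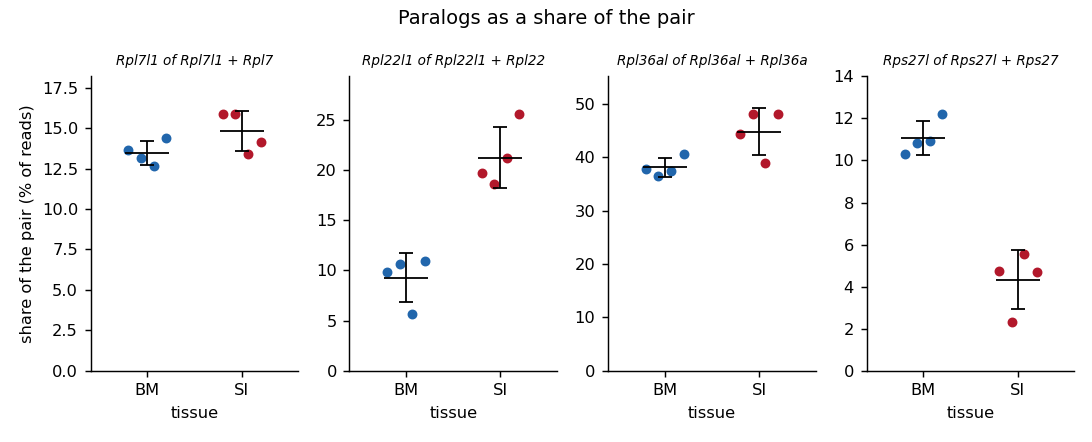
Reads of a paralog as a percent of the reads of its pair in each library (points), with the mean and SD (bars, n = 4), for 4 pairs in bone marrow (BM) and small intestine (SI). Rpl22l1 goes from a mean of 9.26% to 21.2% of its pair and Rps27l goes from 11.1% to 4.33%, with no overlap of the libraries.

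Across the members, the size of the difference varied with the length of the coding sequence. The median was -0.94 in the 10 members under 300 coding bases, -1.23 in 40 members from 300 to below 500, -1.37 in 22 members from 500 to below 800 and -1.54 in 8 members from 800 to below 1500 bases. Spearman's rho between coding length and difference was -0.35 over 80 coding members (-0.41 over 49 of the large and -0.25 over 31 of the small subunit), a description across genes that share all libraries. Among other protein-coding genes with a mean of at least 1000 normalised counts the medians in the same bins were 0.40, 0.25, -0.11 and 0.33, with no such order. Short members included Rps29, Rps27 and Rps27l, and long ones Rpsa, Rpl3 and Rpl4. Between the difference and the percent of windows shared with other genes rho was -0.08. Over the same 80 members rho was -0.35 with transcript length. With the mean deposited value in bone marrow, which itself enters the difference, it was -0.37 (-0.49 over the large and -0.14 over the small subunit). Coding length thus does not stand out among these.

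**Figure D5:**
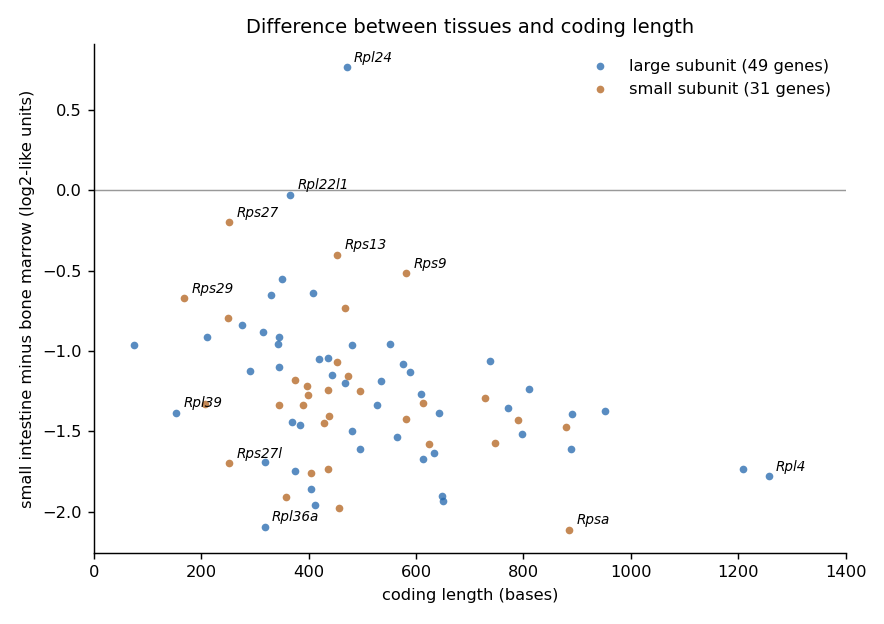
Difference between small intestine and bone marrow (log2-like units) against coding length (bases) for 80 coding members with a mean of at least 10 reads, by subunit. The medians go from -0.94 under 300 bases to -1.54 from 800 bases on, and Rps27l and Rpl36a are short genes with large falls.

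Reads that fit several genes bear on the family as a whole, since 44 of the 86 members have at least 50% of their windows in other genes. Exon bases of Rpl5 (46.6% in Fam69a), Rpl22l1 (28.8% in Gm33051) and Rpl32 (10.3% in Cand2) also lie in other genes, so their counts are uncertain. Of the 15 members with under 25% of their windows shared and at least 10 reads, 15 were lower (median -1.32), and of the 19 with at least 75%, 16 were lower (median -1.39). The 241 rows named as ribosomal pseudogenes held 1.02% of the reads of members and pseudogenes together in the marrow (SD 0.15) and 1.79% in the intestine (SD 0.243, n = 4 each). Of these 241 rows 39 were lower and 17 higher, beside 12.9% and 22.0% of all genes. Only 54 of the rows had a mean of at least 10 reads. Adding their reads to the members left the shares of reads at 2.33% and 0.778%.

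Libraries of 1 tissue differed in the family as a whole. BM_5 held the lowest marrow value for 75 of the 82 members with at least 10 reads, and SI_10 the lowest intestinal value for 53. The highest values were in BM_3 for 46 and BM_1 for 33 members, and in SI_6 for 55 and SI_11 for 26. BM_5 and SI_10 also had reads in the most genes of their tissue. These were 30886 in BM_5, against 19713 to 24592 in the other marrow libraries, and 33346 in SI_10, against 26624 to 29133 in the other intestinal libraries. The part of this in the order was not tested. The spread of a member over libraries of a tissue had a median SD of 0.21 for the marrow and 0.28 for the intestine, against 0.12 and 0.20 for all genes with a mean of at least 1000 normalised counts. Without BM_5 and SI_6 together, chosen after the values were seen, 78 members were lower and the median was -1.46. These libraries lay nearest to the other tissue for most members, so the wider difference follows largely from that choice.

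Markers of other cells moved with the tissues and, in part, with these libraries. The counts of markers below stand beside 12.9% of all genes called lower and 22.0% called higher in small intestine. Among the 10 eosinophil markers, the granule protein genes Epx and Prg2 were lower in small intestine, and the receptor genes Siglecf, Ccr3 and Il5ra were higher, with 5 lower and 4 higher in all. Of the 14 genes of neutrophil precursors, 13 were lower. In the marrow their sum was 639557, 689684, 543894 and 538332 in BM_1, BM_3, BM_4 and BM_5, highest in BM_3 and lowest in BM_5, as the share of ribosomal protein reads was. All 12 proliferation genes were lower (summed range 65336 to 66584 against 4703 to 10249), and 8 of 9 erythroid and 4 of 9 B cell genes were lower. In the intestine, 10 of 11 epithelial genes were higher, summing to 5616, 6263, 38352 and 17400 in SI_10, SI_11, SI_6 and SI_7, against 204 to 252 in the marrow. SI_6 also had the highest share of ribosomal protein reads. The other libraries did not keep that order, since SI_11 had a higher share (0.788%) than SI_7 (0.670%) with a lower epithelial sum. Higher too were 4 of 6 plasma cell genes (5692 to 41578, against 71.1 to 237), 9 of 10 macrophage and dendritic genes (15976 to 25738, against 969 to 1193), 3 of 6 T cell genes (151 to 205, against 28.0 to 67.9) and 5 of 6 fibroblast genes (154 to 724, against 5.74 to 61.4). In the mean over intestinal libraries, most of the macrophage and dendritic sum was Adgre1, which mouse eosinophils are also known to express (161 in the marrow and 13672 in the intestine on average), and without it the sums were 3167 to 13293 against 813 to 1015. The part of these cells was not tested either. The 12 genes of the response to tissue dissociation were all higher (87065 to 114146, against 966 to 1344), and their part was likewise not tested.

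Genes that act with the ribosomal proteins were counted in the same fit. In that fit 12.9% of all genes were lower and 22.0% higher. Of all genes with a mean of at least 1000 normalised counts, 28.9% were lower and 40.4% higher. Among ribosomal protein genes that the naming rule misses, Rack1 (a scaffold on the small subunit) and Rps3a1 were lower and Fau did not pass. Rack1 was at 8028, 7295, 8244 and 5893 in bone marrow and 2031, 2463, 3437 and 2217 in small intestine (difference -1.55 ± 0.23 (SE), adjusted p = 0.000954, limma), Rps3a1 differed by -1.17 ± 0.20 (SE), adjusted p = 0.002, and Fau, a ubiquitin-like fusion to a small-subunit protein, by -0.40 ± 0.21 (SE), adjusted p = 0.184. Fau was called lower with median centring, quantile normalisation, the trend prior and voom (limma adjusted p from 0.0171 to 0.0287), and without SI_11 (0.0441). Of 69 ribosome biogenesis genes, 50 were lower and 1 higher, with a median of -1.15. Wdr12, of the complex that matures large-subunit RNA, and Dkc1, the pseudouridine synthase, were the most negative at -2.86 and -2.67 (adjusted p = 4.19e-05 and 6.87e-05). Sbds, which helps to release the large subunit for use, was the 1 called higher (0.65 ± 0.18 (SE), adjusted p = 0.0235), and lost the call without BM_4 (adjusted p = 0.0502). Of 77 mitochondrial ribosomal protein genes, 57 were lower and 1 higher (median -1.05), from Mrpl44 (-3.36, adjusted p = 9.02e-05) to Mrpl45 (1.12, adjusted p = 0.00755). The call of Mrpl45 was lost with median centring (0.22, limma adjusted p = 0.738).

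Of 15 other genes whose mRNAs carry the TOP motif, 13 were lower and 0 higher, with a median of -0.91. Eef1a1, which brings aminoacyl-tRNA to the ribosome, was at 27481, 24262, 28788 and 19978 in bone marrow and 7053, 8709.5, 12397 and 8669 in small intestine (difference -1.46 ± 0.24 (SE), adjusted p = 0.00144). No intestinal library of Eef1a1 reached the marrow range. Eef1g was the most negative (-1.55 ± 0.24 (SE), adjusted p = 0.00114), and Tpt1, the translationally controlled tumour protein, did not pass (-0.21 ± 0.20 (SE), adjusted p = 0.459). Tpt1 was called lower with median centring (limma adjusted p = 0.0478) and quantile normalisation (0.00686). Of 25 regulators of ribosome production, 7 were lower and 9 higher, with a median of 0.00, beside 28.9% lower and 40.4% higher among all genes with a mean of at least 1000 normalised counts. Myc, a transcription factor that drives ribosome genes, was at 2731, 2478, 2415 and 2963 in bone marrow and 470.4, 689.8, 675 and 745 in small intestine (difference -2.05 ± 0.21 (SE), adjusted p = 0.000124). Larp1, the TOP-binding protein, was at 4713 ± 197 against 1350.0 ± 457 normalised counts (difference -1.86 ± 0.26 (SE), adjusted p = 0.000666), and Mtor, the kinase above it, did not pass (-0.20 ± 0.18 (SE), adjusted p = 0.454). Mtor was called lower with median centring (limma adjusted p = 0.0499). Ddit4 and Sesn2, inhibitors of mTORC1 that rise under stress, were the most positive, with 13.2 ± 4.58 against 292 ± 135 and 38.4 ± 11.1 against 620.0 ± 109 normalised counts (differences 4.08 and 3.91, adjusted p = 6.9e-05 and 1.05e-05, limma).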

How the data were processed

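RNA of cells sorted as eosinophils was amplified with the NuGEN Ovation system and read from a single end, with reads of at least 75 bases and a minimum RIN of 7. According to the study's methods the authors aligned reads to GRCm38 with Ensembl release 86 annotation and counted genes with nf-core/rnaseq. The sources used here do not give the strand setting or what was done with reads that fit several genes. The deposited values are on a log2-like scale, a variance stabilising transformation of gene counts by the authors with DESeq2 in R 4.0.3, which understates changes of genes with few reads.

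The transformation was inverted, and all values gave whole reads (100% within 0.05, largest deviation 0.0061) at size factors of 0.721 to 1.53. Normalised counts are these reads over the size factor, and levels per kb use 1 transcript per gene of GENCODE M21. Libraries held 11508002 to 21289164 reads. Each column name gives the tissue but not which sample of it, so libraries are named by column. The methods name separate mice as replicates, and p-values measure the spread between these libraries.

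limma 3.58.1 (R 4.3.3) was fitted to all 38392 deposited values per library with no filter and no covariate, with Benjamini-Hochberg adjustment over all genes and a threshold of 0.05. limma was chosen for the deposited unit, and the DESeq2 test of the study's methods was not run on the recovered reads. Exact permutation tests (70 assignments, 2-sided) were used for shares of pairs. Differences are small intestine minus bone marrow. The script was tested on simulated data. Alternatives were median centring, quantile normalisation, a trend or robust prior, a filter at a mean of 10 reads, voom on the recovered reads, each library left out, and, added after seeing the data, centring on the median of genes past that filter and leaving out BM_5 and SI_6.

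Named members were those not called or called higher, the 5 most and 5 least negative with at least 10 reads, the 3 highest per kb in each tissue, the stalk genes, paralog pairs, and Rpl5, Rpl11, Rps19, Rps26, Rps6 and Rpsa. Of the other lists, genes outside the name rule (1 is not reported here), extremes, Myc, Mtor, Larp1 and Eef1a1 were named. Rpl6l, Epx, Prg2, Siglecf, Ccr3, Il5ra, Mpo, Elane, Adgre1 and Rpl41 were named besides. Members and lists were chosen with earlier results of these data known. Sequences are from RefSeq (GRCm38.p6).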

Additional observations from a re-analysis of the deposited data

Results flagged for a closer look

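In 78 groups of 4 libraries (35 named members and 4 measures of the family, in each tissue), the gap of the highest or lowest library to its neighbour was set against the range of the group. Chance would flag about 1 in 20 independent groups of a continuous measure, and 6 were flagged. The groups share the same libraries, and some hold mostly 0 reads, so that rate does not apply to them. In bone marrow BM_5 was far below the other libraries for Rps4x (gap of 0.874 of the range), Rpl10 (0.873) and Rpl7 (0.887), as it was the lowest library for 75 of 82 members. In small intestine SI_11 stood above the others for Rps9 (0.853). Rpl10l in BM_5 and Rpl39l in SI_7 had a gap of 1 of the range, with 2 reads and 1 read against 0 in the other libraries of the tissue.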

How the results depend on the processing

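Over the other settings with all 8 libraries, and without BM_5 and SI_6 together, 74 to 80 members were lower, 47 to 49 of the large and 27 to 32 of the small subunit, and 67 to 78 (42 to 48 and 25 to 30) when each library was left out in turn. The median difference moved from -1.28 to -2.18 (large subunit -2.13, small subunit -2.22) with median centring, which shifted the median of all genes to -0.53, and to -1.61 (-1.60 and -1.69) with quantile normalisation, which shifted it to -0.03. It ran from -1.40 to -1.20 when a library was left out. With median centring 4285 genes were higher and 10216 lower, and with quantile normalisation 5954 and 7032, against 8465 and 4937. The 1 member called higher, Rpl24, was no longer called (0 higher) in every setting except the filter on low values and without BM_5 or SI_10, which made the count 0 to 1 when a library was left out. At an unadjusted p under 0.05 it was 0 with median centring, quantile normalisation, the trend prior and voom, and 1 in the others. Of the other lists, ribosome biogenesis genes called higher were 0 with either centring, 2 without BM_5 and SI_6, and 0 to 1 when a library was left out; growth regulators called higher were 3 with median centring. Mitochondrial ribosomal protein genes called higher were 0 with median centring, 2 with quantile normalisation, the trend prior, the filter, voom and without BM_5 and SI_6, and 1 to 2 when a library was left out. The share of ribosomal protein reads was 3.12% and 0.963% of nuclear protein-coding reads, in place of 2.30% and 0.764% of all reads. Median centring reversed Rpl24 (-0.13), Rpl10l (-0.70), Rpl3l (-0.50) and Sbds (-0.25), and quantile normalisation reversed Rpl24 (-0.19), Rpl10l (-0.16), Rpl3l (-0.60) and Rpl22l1 (0.079). Rps12l1 was at 0.12 with voom, and ran from -0.42 to 0.091 when a library was left out. Rpl39l was at 0.12 without BM_5 and SI_6, and ran from -0.68 to 0.022, and Rpl22l1 ran from -0.29 to 0.11. None of the reversed values passed the threshold, and the cause was not tested except for median centring, which by construction lowers every difference alike. Of 35 named members, 24 kept their direction and their side of the threshold in all 16 settings. Depth limits the 4 members under a mean of 10 reads. No paired analysis was possible because the tissues share no replicate numbers in the labels.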
